A study of Homo sapiens and Mus musculus with 24 samples.

Results

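Bone morphogenetic proteins (BMPs) signal to intestinal epithelium through receptors, SMAD proteins and the inhibitors of DNA binding (ID proteins), and 10 genes of this route are described here. They are the ligands BMP2, BMP4 and BMP7, the receptors BMPR1A and BMPR2, the inhibitory SMADs SMAD6 and SMAD7 and the targets ID1, ID2 and ID3. The genes are a list of names with no threshold on a value, and were found by symbol as 10 of 58051 gene identifiers in the human count tables and as 10 of 29307 in the mouse tables. RNA was sequenced from 4 lines of Caco-2, a human colorectal adenocarcinoma line with enterocyte features, and from purified colonic epithelial cells of adult mice kept at steady state. The Caco-2 lines were the unedited WT, a ΔDNMT3A line in which the de novo DNA methyltransferase DNMT3A had been removed with CRISPR-Cas9, and 2 derivatives of that knockout labelled DNMT3A1 and DNMT3A2, into which the long or the short isoform of the enzyme had been put back from a piggyBac construct under puromycin selection. Both derivatives keep the knockout. Each of the 3 edited lines had been grown out after limiting dilution and stands for 1 clone, so a difference between lines cannot be told apart from a difference between clones. The mice had a Dnmt3a allele with loxP sites around several exons on a C57BL/6 background, either without Cre (Dnmt3a fl/fl) or with Cre driven by the Villin promoter of intestinal epithelial cells (Dnmt3a ΔIEC), and their cells had been selected for the epithelial surface protein EpCAM. There were 4 libraries each of WT, ΔDNMT3A and DNMT3A2, 3 of DNMT3A1, whose replicate 3 was not analysed here, and 4 of each mouse genotype. The labels give no separate cultures behind the Caco-2 replicates, so their p-values measure the spread between libraries, which may be technical.

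BMP ligands bring together type I receptors such as BMPR1A and type II receptors such as BMPR2, which phosphorylate SMAD1, SMAD5 and SMAD9, and these enter the nucleus with SMAD4. ID1, ID2 and ID3 are among the classical targets. ID proteins lack a DNA-binding domain and hold basic helix-loop-helix factors of the E protein family off the DNA, which keeps cells from differentiating in many tissues. SMAD6 and SMAD7 are also induced by the pathway and feed back on it, SMAD6 mainly on the BMP arm and SMAD7 on the BMP and TGF-beta arms. In the colon BMP signalling is strongest towards the mucosal surface, and antagonists made around the crypt base keep it low near the stem cells.

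DNMT3A methylates cytosines in CpG dinucleotides, so the CpG content of the start regions of ID1, ID3 and SMAD6 is shown, the 3 genes with the furthest changes among the targets and inhibitory SMADs in ΔDNMT3A. The sequences are RefSeq windows of GRCh38.p14 from 250 bases before to 50 bases after the annotated start, written 5′ to 3′ on the strand of the gene with each CpG in capitals. They lie at chr20:31605039-31605338 on the plus strand (ID1), chr1:23559452-23559751 on the minus strand (ID3) and chr15:66701986-66702285 on the plus strand (SMAD6).
ID1: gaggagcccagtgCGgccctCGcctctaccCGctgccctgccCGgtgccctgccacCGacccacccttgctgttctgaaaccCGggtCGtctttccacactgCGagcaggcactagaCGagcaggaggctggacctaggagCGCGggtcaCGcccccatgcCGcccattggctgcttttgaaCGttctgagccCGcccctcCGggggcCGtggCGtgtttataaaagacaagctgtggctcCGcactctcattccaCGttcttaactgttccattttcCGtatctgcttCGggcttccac
ID3: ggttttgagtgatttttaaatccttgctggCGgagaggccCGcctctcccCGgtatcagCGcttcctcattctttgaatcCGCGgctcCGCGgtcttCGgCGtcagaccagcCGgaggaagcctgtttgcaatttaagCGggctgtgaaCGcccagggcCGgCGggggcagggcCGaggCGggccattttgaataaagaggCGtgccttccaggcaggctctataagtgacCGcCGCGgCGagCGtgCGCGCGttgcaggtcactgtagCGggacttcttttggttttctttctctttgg
SMAD6: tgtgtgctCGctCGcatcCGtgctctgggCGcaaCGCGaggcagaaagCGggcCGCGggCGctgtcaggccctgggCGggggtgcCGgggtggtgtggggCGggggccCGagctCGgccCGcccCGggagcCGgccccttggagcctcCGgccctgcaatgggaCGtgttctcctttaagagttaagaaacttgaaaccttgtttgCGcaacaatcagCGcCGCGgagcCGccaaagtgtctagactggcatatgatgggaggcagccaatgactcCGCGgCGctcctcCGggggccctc
The ID1 window held 22 CpGs, the ID3 window 27 and the SMAD6 window 29, against a median of 14 over all 35116 windows of the table. Of all windows, 62.3%, 71.8% and 75.8% held fewer, in the same order. Genes not shown lay on both sides: BMPR2 had 38, ID2 33 and BMP4 23 to 32, while BMPR1A had 15 and SMAD7 4 to 17. High CpG content was thus not particular to the 3 genes shown. Windows matched 8 of the 10 genes, all except BMP2 and BMP7. The palindromic SMAD-binding letters GTCTAGAC were searched on both strands and occurred among these genes in the SMAD6 window, where they started 12 bases before the annotated start, and in 0.202% of all windows. The palindrome GGCGCC, bound by BMP-type SMADs in some enhancers, occurred in windows of BMP4 and BMPR2 and in 19.2% of all windows. These matches describe letters, and no methylation value was used here.

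The Caco-2 libraries held 22104408 to 42161299 reads assigned to genes and the mouse libraries 16943626 to 24921248. DNMT3A was counted at 61.99 to 67.2 CPM (counts scaled to a common library size with TMM factors) in WT, 19.3 to 22.3 in ΔDNMT3A, 36.7 to 39.1 in DNMT3A1 and 20.2 to 23.5 in the libraries labelled DNMT3A2. The last group overlapped ΔDNMT3A, with a log2 fold change (given with its standard error, SE) of 0.073 (SE 0.057, adjusted p = 0.272), so the RNA counts do not show the reintroduced isoform there. The paper reports re-expression of both isoforms as protein, by immunoblot and by staining in nuclei. As far as these counts go, each direction drawn from this line below rests on its label. Mouse Dnmt3a fell from 84.7 to 102 CPM in fl/fl to 41.7 to 49.6 in ΔIEC, with residual reads in every library. Summed CPM of 7 epithelial markers ran from 8902 to 9166 in WT, 11390 to 12030 in ΔDNMT3A, 9428 to 9576 in DNMT3A1, 7734 to 7974 in DNMT3A2-labelled libraries and 9666 to 13820 over the mouse libraries. Of 3 endothelial markers CDH5 and KDR were at or under 3 counts in every Caco-2 group, while PECAM1 was counted at 6.63 to 8.01 CPM in WT, 7.78 to 8.25 in ΔDNMT3A, 8.43 to 9.30 in DNMT3A1 and 2.72 to 3.58 in DNMT3A2-labelled libraries. The sum of 8 stromal markers was 219 to 224 CPM in WT, 169 to 182 in ΔDNMT3A, 174 to 190.1 in DNMT3A1 and 209.9 to 233 in DNMT3A2-labelled libraries, and the 5 of them tested in ΔDNMT3A against WT were all lower with edgeR, with DCN at or under 3 counts in every group. The sum of 8 immune markers was 25.4 to 32.4 CPM over all Caco-2 libraries, with PTPRC at or under 3 counts in every group. Crypt base markers (LGR5, ASCL2, AXIN2) summed to 86.97 to 91.8 CPM in WT, 68.4 to 72.01 in ΔDNMT3A, 74.2 to 77.9 in DNMT3A1 and 136 to 139 in DNMT3A2-labelled libraries. The members moved apart: mean LGR5 was 34.7 CPM in WT and 6.54 in ΔDNMT3A, with 18.6 for DNMT3A1 and 18.4 for DNMT3A2-labelled libraries, and mean AXIN2 was, in the same order, 38.7, 47.2, 36.7 and 93.4 CPM. The part of these differences in the results below was not tested.

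Per kilobase of counted transcript, ID1 and ID2 were the most abundant of the 10 RNAs in WT Caco-2, at mean levels of 88.8 and 49.01 CPM per kilobase. The ligands followed at 8.37 (BMP2), 8.84 (BMP4) and 9.37 (BMP7) CPM per kilobase. BMPR1A stood at 6.59, BMPR2 at 2.89, SMAD6 at 2.67, ID3 at 2.60 and SMAD7 at 1.997 CPM per kilobase. The order of the mouse epithelium was another: in fl/fl cells Id1 led with 205, followed by Id3 with 69.7, Bmp2 with 46.2 and Smad7 with 40.6 CPM per kilobase, while Id2 stood at 16.1 and Bmp7 at 0.466. Levels of the 2 species come from separate tables and were not tested against each other.

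**Figure D1:**
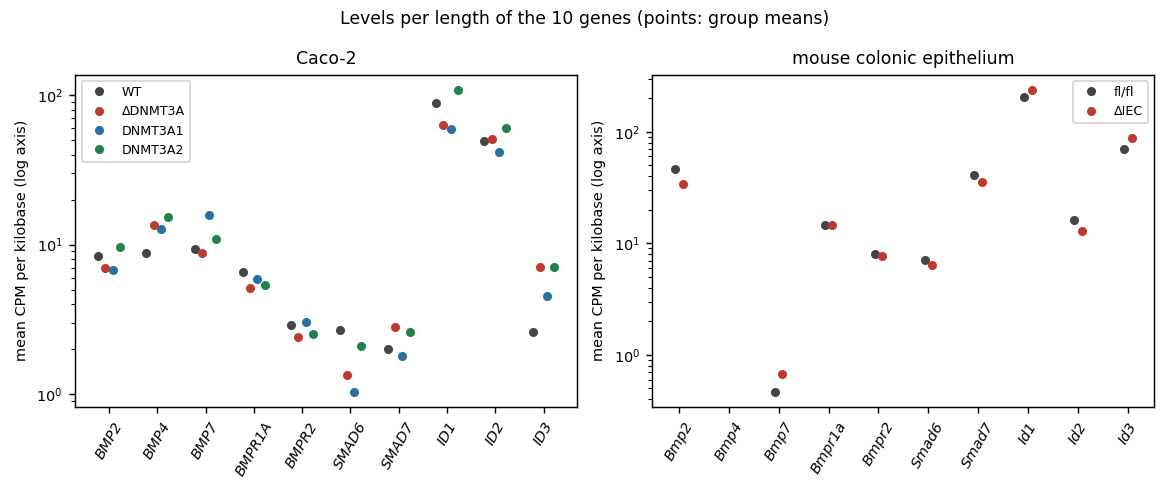
Mean level of each gene per kilobase of counted length (log axis) in the 4 Caco-2 lines and the 2 mouse genotypes, one point per group. ID1 stood highest in both systems, ID3 was low in WT Caco-2 and high in the mouse, and mouse Bmp4, at 0 or 1 count per library, is left out.

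In ΔDNMT3A against WT, 3 of the 10 genes rose and 6 fell, among them ID3 upwards and SMAD6 and ID1 downwards. ID3 had the furthest rise, with a log2 fold change of 1.43, and SMAD6 the furthest fall, with -1.002. Over all 16654 genes tested with edgeR's quasi-likelihood test at an adjusted p under 0.05, 62.2% were past the threshold, 31.2% upwards and 31% downwards, so 9 called genes of 10 stand beside a background in which most genes were called. The groups did not overlap for 8 of the 10 genes, 3 higher and 5 lower, against 55.4% of all genes (28.9% higher and 26.5% lower). The median log2 fold change was -0.18 over the 10 genes and -0.0049 over all genes tested. Within the 2 sequencing lanes that the libraries carry in their names, 8 of the 10 were called in lane 5 and 8 in lane 6. In bulk RNA, fewer cells of a type and less RNA per cell cannot be told apart.

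**Figure D2:**
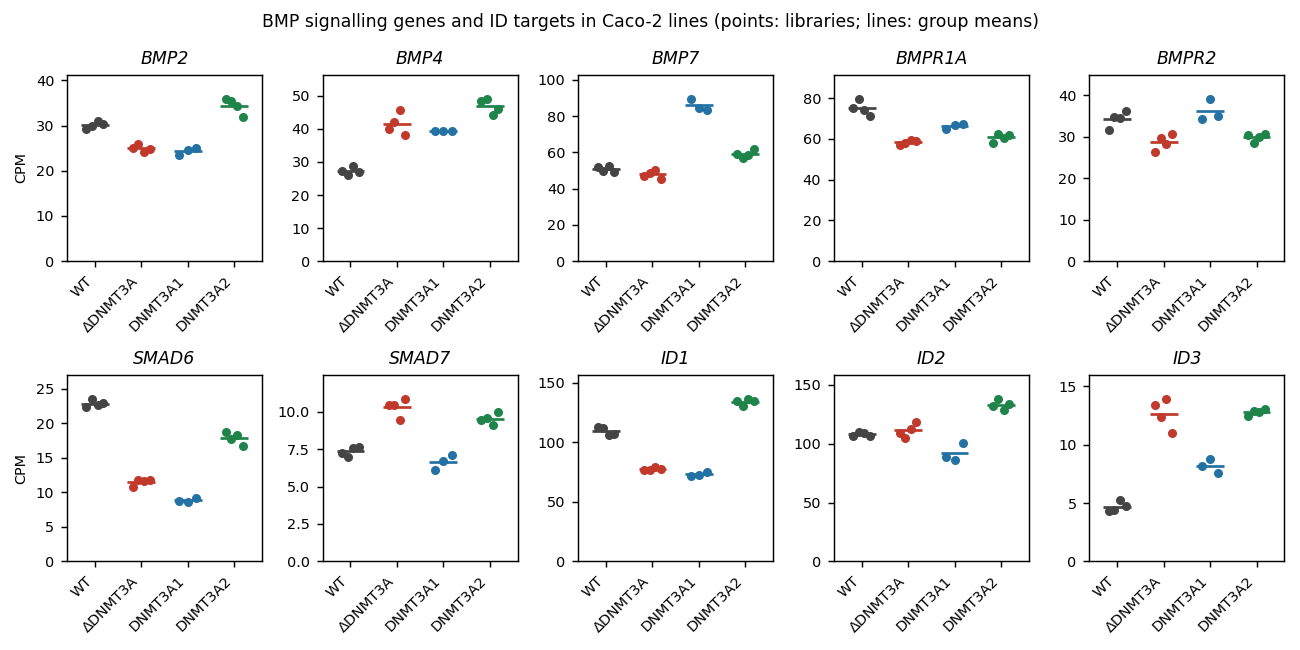
CPM of each gene in every Caco-2 library (points) with the group means (lines), each axis starting at 0. ID3 lay lowest in WT, from 4.33 to 5.23 CPM, SMAD6 lay lowest in DNMT3A1, from 8.58 to 9.24 CPM, and BMP7 highest in DNMT3A1.

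Among the ligands, BMP4 was the one that rose in ΔDNMT3A. BMP4, at chr14:53949736-53958761 of GRCh38, encodes a ligand that in the colon comes largely from the mesenchyme. Its level was 27.3, 25.99, 28.6 and 27.1 CPM in the WT libraries, 40.05, 42.1, 45.6 and 38.2 in ΔDNMT3A, 39.5, 39.5 and 39.3 in DNMT3A1 and 48.5, 49.1, 44.3 and 45.9 in DNMT3A2-labelled libraries. Every library of the 3 edited lines lay above every WT library, and the log2 fold change against WT was 0.59 (SE 0.049, adjusted p = 1.6e-10) in ΔDNMT3A, 0.53 (SE 0.046, adjusted p = 1.79e-10) in DNMT3A1 and 0.77 (SE 0.043, adjusted p = 6.63e-16) in DNMT3A2-labelled libraries. Against ΔDNMT3A the difference was -0.073 (SE 0.054, adjusted p = 0.259) in DNMT3A1, which did not pass, and 0.17 (SE 0.046, adjusted p = 0.00216) in the DNMT3A2-labelled libraries, which passed although the groups overlapped. Against WT, the 50 tested neighbours of BMP4 on chromosome 14 had medians of 0.21 in ΔDNMT3A, 0.60 in DNMT3A1 and 0.012 in DNMT3A2-labelled libraries. All tested genes of that chromosome had medians of 0.080, 0.52 and -0.048 in the same order. The rise of BMP4 in DNMT3A1 was thus close to that of its chromosome. BMP2, at chr20:6767664-6780280, encodes a ligand that differentiated colonocytes make themselves. It was counted at 29.2, 30.02, 30.98 and 30.4 CPM in WT, 24.9, 25.9, 24.1 and 24.9 in ΔDNMT3A, 23.6, 24.6 and 24.99 in DNMT3A1 and 35.9, 35.5, 34.4 and 31.9 in DNMT3A2-labelled libraries. The knockout fell below WT by 0.28 on the log2 scale (SE 0.044, adjusted p = 4.97e-06), DNMT3A1 did not differ detectably from the knockout (-0.032, adjusted p = 0.585), and the DNMT3A2-labelled libraries stood 0.46 above it (adjusted p = 1.03e-08) and 0.17 above WT (adjusted p = 0.00116). Against WT, all tested genes of chromosome 20 had medians of -0.19 in ΔDNMT3A, -0.31 in DNMT3A1 and -0.36 in DNMT3A2-labelled libraries. BMP2 had -0.28, -0.31 and 0.17 in the same order. Its fall in DNMT3A1 was thus close to that of its chromosome, and its rise in DNMT3A2-labelled libraries was of the opposite sign.

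BMP7, at chr20:57168748-57266629, encodes a ligand best known from kidney and bone development. It was counted at 51.8, 49.6, 52.5 and 49.2 CPM in WT and 47.2, 48.7, 50.2 and 45.3 in ΔDNMT3A, and these groups overlapped. Their log2 fold change of -0.10 (SE 0.037, adjusted p = 0.0286) passed in edgeR but not in DESeq2 (adjusted p = 0.0707). It also missed the threshold when WT replicate 1 or 3 or ΔDNMT3A replicate 1 or 4 was left out, with adjusted p from 0.0758 to 0.115 in these 4 fits. DNMT3A1 stood apart from the other lines with 89.5, 84.6 and 83.6 CPM, at a log2 fold change of 0.84 (SE 0.043, adjusted p = 1.63e-12) against ΔDNMT3A, and 0.76 (SE 0.039, adjusted p = 6.43e-15) against WT. The DNMT3A2-labelled libraries had 59.3, 56.9, 58.6 and 61.8 CPM, above the knockout by 0.30 (SE 0.036, adjusted p = 7.81e-08) and above WT by 0.21 (SE 0.034, adjusted p = 3.73e-06). BMP7 thus differed between the isoform lines in the direction opposite to BMP2 and BMP4, with 0.54 (SE 0.036, adjusted p = 9.43e-13) in DNMT3A1 against DNMT3A2-labelled libraries, where BMP2 had -0.49 (adjusted p = 4.1e-09) and BMP4 -0.25 (adjusted p = 1.8e-05).

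Both receptor genes fell in ΔDNMT3A and rose again in DNMT3A1. BMPR1A, at chr10:86756650-86932838, encodes the type I receptor whose germline loss underlies juvenile polyposis, and was counted at 75.1, 79.6, 74.02 and 70.98 CPM in WT, 57.1, 58.1, 59.2 and 58.8 in ΔDNMT3A, 64.6, 66.8 and 67.5 in DNMT3A1 and 58.02, 62.3, 60.5 and 61.9 in DNMT3A2-labelled libraries. No library of the edited lines reached the lowest WT value. The log2 fold change was -0.37 (SE 0.035, adjusted p = 1.86e-09) in ΔDNMT3A against WT, 0.19 (SE 0.039, adjusted p = 0.000325) in DNMT3A1 against ΔDNMT3A and 0.053 in DNMT3A2-labelled libraries against ΔDNMT3A (adjusted p = 0.146), of which the last did not pass. BMPR2, at chr2:202376936-202567751, encodes the type II receptor that activates BMPR1A. It stood at 31.7, 34.8, 34.6 and 36.3 CPM in WT, 26.4, 29.7, 28.3 and 30.8 in ΔDNMT3A, 34.4, 39.2 and 34.97 in DNMT3A1 and 30.5, 28.6, 30.03 and 30.6 in DNMT3A2-labelled libraries. Its log2 fold change was -0.27 (SE 0.051, adjusted p = 7.3e-05) in the knockout against WT and 0.33 (SE 0.059, adjusted p = 6.44e-05) in DNMT3A1 against the knockout, so that DNMT3A1 and WT overlapped at 0.069 (SE 0.053, adjusted p = 0.262). The DNMT3A2-labelled libraries remained within the range of the knockout at 0.055 (SE 0.05, adjusted p = 0.34). These were changes of less than 1.5-fold, and the 50 tested neighbours of BMPR1A on chromosome 10 had a median of -0.27 in the knockout against WT, beside -0.37 for BMPR1A itself. The 50 tested neighbours of BMPR2 on chromosome 2 had a median of 0.046 in that comparison, beside -0.27 for BMPR2.

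The 2 inhibitory SMADs moved in opposite directions in the knockout. SMAD6, at chr15:66702228-66782848, competes with SMAD4 for SMAD1 and holds back BMP signals. It was counted at 22.4, 23.5, 22.6 and 22.9 CPM in WT and 10.8, 11.8, 11.7 and 11.8 in ΔDNMT3A, a log2 fold change of -1.002 (SE 0.055, adjusted p = 9.93e-14). In DNMT3A1 it was lower still, at 8.74, 8.58 and 9.24 CPM, -0.37 (SE 0.069, adjusted p = 0.000103) against the knockout and -1.36 (SE 0.061, adjusted p = 3.59e-16) against WT. The DNMT3A2-labelled libraries had 18.8, 17.8, 18.3 and 16.7 CPM, which was 0.63 (SE 0.061, adjusted p = 2.54e-09) against the knockout and -0.37 (SE 0.051, adjusted p = 1.91e-07) against WT. The 4 lines did not overlap in SMAD6, and their order from WT over DNMT3A2-labelled and ΔDNMT3A to DNMT3A1 held at each step in the test of neighbouring groups. For the 50 tested neighbours of SMAD6 on chromosome 15 the median was -0.12 in ΔDNMT3A against WT and 0.30 in DNMT3A2-labelled libraries against ΔDNMT3A, each of the same sign as SMAD6 and smaller. In DNMT3A1 it was -0.15 against ΔDNMT3A and -0.27 against WT, again of the same sign and smaller. In DNMT3A2-labelled libraries against WT it was 0.20, opposite in sign to the -0.37 of SMAD6.

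SMAD7, at chr18:48919853-48950711, recruits ubiquitin ligases to the activated receptors and is known in the gut as a brake on TGF-beta. It was counted at 7.26, 6.997, 7.56 and 7.67 CPM in WT, 10.4, 10.4, 9.47 and 10.8 in ΔDNMT3A, 6.11, 6.70 and 7.07 in DNMT3A1 and 9.45, 9.598, 9.10 and 9.98 in DNMT3A2-labelled libraries. The knockout lay above WT in all its libraries at 0.47 (SE 0.07, adjusted p = 3.25e-06). DNMT3A1 fell below the knockout by 0.63 on the log2 scale (SE 0.080, adjusted p = 9.32e-07), and its range met that of WT (-0.16, adjusted p = 0.103). The DNMT3A2-labelled libraries overlapped the knockout at -0.12 (SE 0.067, adjusted p = 0.13) and lay above WT at 0.35 (SE 0.07, adjusted p = 5.55e-05).

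The 3 ID genes did not move together in ΔDNMT3A: ID1 fell, ID3 rose and ID2 did not pass the test. ID1, at chr20:31605283-31606515, is the member most often used as a readout of BMP signalling. It was counted at 112, 112, 106 and 107 CPM in WT, 76.9, 76.5, 79.2 and 77.9 in ΔDNMT3A, 71.4, 72.8 and 74.9 in DNMT3A1 and 135, 131, 136 and 134 in DNMT3A2-labelled libraries, and no 2 lines overlapped. The log2 fold change was -0.51 (SE 0.03, adjusted p = 3.35e-13) in ΔDNMT3A against WT and 0.78 (SE 0.026, adjusted p = 1e-17) in DNMT3A2-labelled libraries against ΔDNMT3A, which put these above WT by 0.28 (SE 0.026, adjusted p = 7.64e-11). DNMT3A1 lay below WT by -0.59 (SE 0.034, adjusted p = 8.97e-14) and below the knockout by a small step of -0.087 (SE 0.035, adjusted p = 0.0404). That step also passed in DESeq2 (adjusted p = 0.0419), but not when ΔDNMT3A replicate 1 or 3 or DNMT3A1 replicate 1 or 2 was left out (adjusted p from 0.0711 to 0.159), nor within lane 5 (0.111) or lane 6 (0.521). ID1 lies on chromosome 20, where its 50 tested neighbours had a median of -0.42 in ΔDNMT3A against WT and -0.13 in DNMT3A2-labelled libraries against ΔDNMT3A. The fall of ID1 in the knockout was thus close to that of its neighbourhood, and its rise in the DNMT3A2-labelled line was of the opposite sign. In DNMT3A1 against WT the neighbours had a median of -0.26, a smaller fall than the -0.59 of ID1.

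ID3, at chr1:23557918-23559794, had the lowest level among ID1, ID2 and ID3 in these cells. Its libraries held 4.33, 4.39, 5.23 and 4.76 CPM in WT, 13.4, 12.4, 13.9 and 11 in ΔDNMT3A, 8.15, 8.77 and 7.61 in DNMT3A1 and 12.4, 12.9, 12.8 and 13.1 in DNMT3A2-labelled libraries. Every edited library exceeded every WT library. The log2 fold change was 1.43 (SE 0.084, adjusted p = 3.78e-13) in ΔDNMT3A against WT, a size reached by 4.33% of all genes tested in either direction. DNMT3A1 lay between knockout and WT, at -0.64 (SE 0.083, adjusted p = 1.34e-06) against the former and 0.79 (SE 0.091, adjusted p = 2.52e-08) against the latter. The DNMT3A2-labelled libraries sat inside the range of the knockout, at 0.007 (SE 0.068, adjusted p = 0.936), and above WT at 1.43 (SE 0.074, adjusted p = 9.91e-17). The neighbours of ID3 on chromosome 1 had a median of 0.20 in ΔDNMT3A against WT.

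ID2, at chr2:8678845-8684453, is a target of MYC and WNT signals as well as of BMPs and is high in colorectal tumours. It stood at 107, 109.7, 109 and 107 CPM in WT, 109, 104, 113 and 118 in ΔDNMT3A, 89.1, 85.98 and 101 in DNMT3A1 and 132, 138, 129 and 134 in DNMT3A2-labelled libraries. WT lay inside the range of the knockout, with a log2 fold change of 0.03 (SE 0.033, adjusted p = 0.447). Against the knockout, DNMT3A1 fell by 0.27 (SE 0.048, adjusted p = 5.98e-05) and the DNMT3A2-labelled libraries rose by 0.25 (SE 0.033, adjusted p = 4.12e-07). WT lay between the isoform lines, with -0.23 (SE 0.041, adjusted p = 2.19e-05) for DNMT3A1 and 0.28 (SE 0.026, adjusted p = 3.98e-11) for DNMT3A2-labelled libraries against it. ID2 sits near the end of chromosome 2, where its 39 tested neighbours had a median of -0.46 in ΔDNMT3A against WT and 0.44 in DNMT3A2-labelled libraries against ΔDNMT3A.

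**Figure D3:**
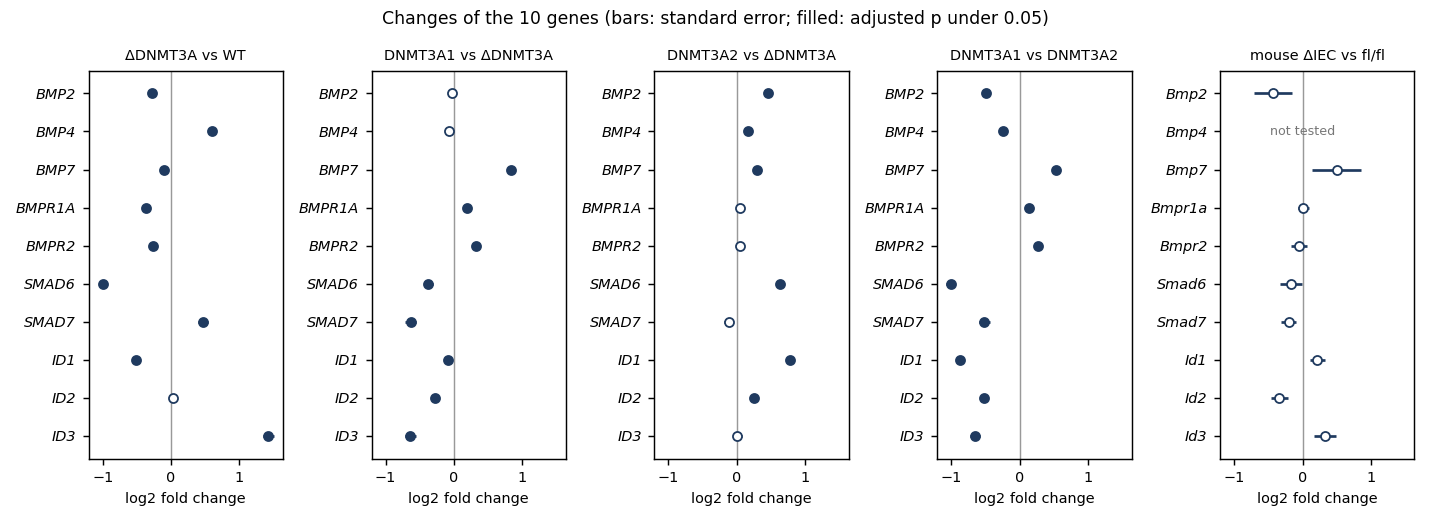
Log2 fold change (x axis) of the 10 genes in 4 comparisons of Caco-2 lines and in ΔIEC against fl/fl mice. Bars are standard errors, filled points passed an adjusted p under 0.05, and all 10 points are filled in DNMT3A1 against DNMT3A2-labelled libraries while none is in the mouse.

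Counted over the whole list, DNMT3A1 against ΔDNMT3A gave 3 genes that rose (BMP7, BMPR1A, BMPR2) and 5 that fell (SMAD6, SMAD7, ID1, ID2, ID3), where 30.4% of all 16860 genes rose, 30.3% fell and 60.7% were called in all. Both receptors rose while all 3 ID genes and both inhibitory SMADs fell. DNMT3A2-labelled libraries against ΔDNMT3A gave 6 genes that rose (BMP2, BMP4, BMP7, SMAD6, ID1, ID2) and 0 that fell, beside 33.8% higher and 34.1% lower among 16431 genes tested with edgeR, and 67.9% in all. DESeq2 also called 6. At an unadjusted p under 0.05 edgeR again gave these 6 and 0 lower. Groups that did not overlap numbered 8 of 10 in DNMT3A1 against the knockout (3 higher, 5 lower; all genes 59.8%, 30% and 29.8%) and 5 of 10, all higher, in DNMT3A2-labelled libraries (all genes 61.4%, 30.9% higher and 30.5% lower). The medians over the 10 genes were -0.08 for DNMT3A1 and 0.21 for DNMT3A2-labelled libraries, with 0.014 and 0.0036 over all genes. These 2 comparisons share the ΔDNMT3A libraries.

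Compared directly, all 10 genes passed between the isoform lines, 3 higher in DNMT3A1 (BMP7, BMPR1A, BMPR2) and 7 higher in the DNMT3A2-labelled libraries, where 68.5% of all 16637 genes tested were called (34.5% higher and 33.9% lower in DNMT3A1). The 3 ID genes and both inhibitory SMADs were lower in DNMT3A1, by log2 fold changes of -1.01 (SE 0.068) for SMAD6, -0.87 (SE 0.031) for ID1, -0.65 (SE 0.071) for ID3, -0.53 (SE 0.041) for ID2 and -0.52 (SE 0.081) for SMAD7. For each of these 5 genes the 3 DNMT3A1 libraries lay below all 4 DNMT3A2-labelled ones, and all 10 genes had groups that did not overlap, against 66.6% of all genes (33.4% higher and 33.2% lower). The median was -0.51 over the 10 genes and 0.003 over all genes. Against WT, 3 genes were higher and 5 lower in DNMT3A1 (background 65.3% called, 32.6% higher and 32.7% lower), and 7 were higher and 3 lower in DNMT3A2-labelled libraries (background 68.7%, 34.3% higher and 34.4% lower). Groups that did not overlap numbered 8 in DNMT3A1 against WT, 3 higher and 5 lower (all genes 63.4%, 31.8% and 31.5%), and 10 in DNMT3A2-labelled libraries against WT, 7 higher and 3 lower (all genes 62.2%, 32.3% and 29.9%). The comparisons with WT share its libraries.

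Of 49 other genes of the pathway, 24 were tested in ΔDNMT3A against WT, and 7 rose and 13 fell, beside 62.2% of all genes called (31.2% higher and 31% lower). The signal-carrying SMADs did not move alike. SMAD1 was counted at 5.71 to 7.98 CPM in WT, 0.798 to 1.16 in ΔDNMT3A, 1.28 to 1.80 in DNMT3A1 and 0.138 to 0.460 in DNMT3A2-labelled libraries, the last from 3 to 13 reads per library. Its log2 fold change was -2.81 (SE 0.14, adjusted p = 1.49e-14) in the knockout against WT. SMAD5, which carries the same signal, stood at 43.6 CPM per kilobase in WT where SMAD1 had 1.12. It rose slightly in ΔDNMT3A, from 382 ± 10.01 CPM (n = 4, SD) to 425 ± 6.12 CPM (n = 4, SD), by 0.14 (SE 0.026, adjusted p = 6.33e-05). SMAD9 was near its detection limit in WT and ΔDNMT3A, at 5 to 13 reads per library, and reached 3.78 to 4.39 CPM in DNMT3A2-labelled libraries, a log2 fold change of 3.97 (SE 0.19, adjusted p = 8.3e-15) against the knockout. The common partner SMAD4 did not pass in the knockout (-0.063, adjusted p = 0.121).

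Secreted antagonists bind BMPs outside the cell. CHRD (chordin) had 7.95 ± 0.847 CPM (n = 4, SD) in WT and rose in ΔDNMT3A to 31.7 ± 1.44 CPM (n = 4, SD), by 1.98 (SE 0.065, adjusted p = 3.83e-18) on the log2 scale, and was at 33.6 CPM in DNMT3A1 and 15.9 CPM in DNMT3A2-labelled libraries. SOSTDC1, an antagonist of BMP and WNT ligands, fell in the knockout by 1.27 (adjusted p = 6.34e-10) and exceeded it in both isoform lines, at 2.43 (SE 0.11, adjusted p = 1.52e-13) in DNMT3A1 and 1.54 (SE 0.12, adjusted p = 8.7e-11) in DNMT3A2-labelled libraries. TWSG1, which modulates the chordin complex, was at 199.7 ± 3.41 CPM (n = 3, SD) in DNMT3A1 and 48.5 ± 1.14 CPM (n = 4, SD) in DNMT3A2-labelled libraries, a difference of 2.04 (SE 0.031, adjusted p = 5.34e-26). BAMBI, a decoy receptor without a kinase domain and itself a target of BMP and WNT signals, was at 112 ± 1.38 CPM (n = 4, SD) in WT, 144 ± 9.25 CPM (n = 4, SD) in ΔDNMT3A, 51.2 ± 1.000 CPM (n = 3, SD) in DNMT3A1 and 329.6 ± 12.1 CPM (n = 4, SD) in DNMT3A2-labelled libraries. Like the ID genes and the inhibitory SMADs it was lower in DNMT3A1 than in DNMT3A2-labelled libraries, by -2.68 (SE 0.035, adjusted p = 4.46e-27). Of the homeobox targets, MSX1 differed by -1.61 (SE 0.062, adjusted p = 8.89e-18) and MSX2 by -0.73 (SE 0.04, adjusted p = 1.62e-14) in DNMT3A1 against DNMT3A2-labelled libraries. Against the knockout both fell in DNMT3A1, at -0.69 for MSX1 and -1.08 for MSX2 (adjusted p = 3.76e-08 and 5.67e-14). They differed in sign in DNMT3A2-labelled libraries against the knockout (0.92 and -0.36) and in the knockout against WT (-0.42 and 0.39), all past the threshold. Of the remaining ligands, GDF7 rose in DNMT3A1 against the knockout by 1.33 (SE 0.087, adjusted p = 7.35e-11), and BMP8B fell in the knockout by 0.98 (adjusted p = 1.57e-13). Its close paralogue BMP8A was also lower there, at -0.54 (SE 0.14, adjusted p = 0.0023). Whether reads were divided between these paralogues was not tested.

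Over the same list, 15 genes rose and 7 fell of 26 tested in DNMT3A1 against ΔDNMT3A, where 30.4% of all genes rose and 30.3% fell. In DNMT3A2-labelled libraries against ΔDNMT3A 16 rose and 5 fell of 26, where 33.8% of all genes rose and 34.1% fell. Between the isoform lines 7 were higher in DNMT3A1 and 12 lower, of 26, where 34.5% of all genes were higher and 33.9% lower. The list had a median of -0.18 in ΔDNMT3A against WT, 0.23 in DNMT3A1 and 0.20 in DNMT3A2-labelled libraries against the knockout. The 3 E proteins that ID proteins bind were called in the knockout, as were 62.2% of all genes, with TCF3 at -0.16 (SE 0.035, adjusted p = 0.000419), TCF12 at -0.24 (SE 0.033, adjusted p = 1.18e-06) and TCF4 at 0.52 (SE 0.03, adjusted p = 1.89e-13). Between the isoform lines TCF3, TCF12 and TCF4 were lower in DNMT3A1 at -0.72, -0.74 and -0.26 (adjusted p = 1.03e-15, 2.93e-16 and 2.44e-08). That was the side on which ID1, ID2 and ID3 were also lower.

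**Figure D4:**
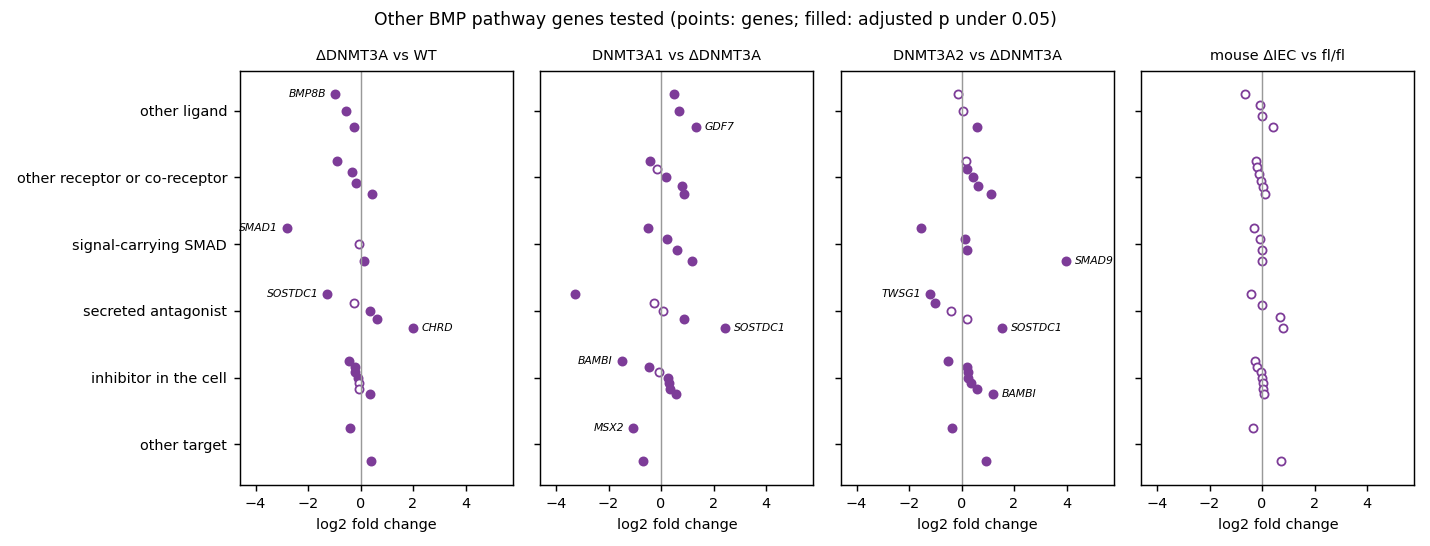
Log2 fold change (x axis) of the other BMP pathway genes tested, by role, in 3 comparisons of Caco-2 lines and in the mouse. Each point is a gene, filled where the adjusted p was under 0.05, and the up to 4 called genes furthest from 0 with a mean of at least 1 CPM are named. SMAD1 at -2.81 and CHRD at 1.98 stand furthest out in ΔDNMT3A against WT, SMAD9 at 3.97 in DNMT3A2-labelled libraries, and no mouse point is filled.

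Across the 15 Caco-2 libraries, which fall into 4 lines, the 3 genes whose log2 CPM ran most like ID1 among 13760 genes were AQR, CTDSPL2 and AAGAB, with Pearson's r of 0.993, 0.992 and 0.992. All 3 lie on chromosome 15, as do 32 of the 154 genes with r of at least 0.95 to ID1 (20.8%, against 3.37% of all genes compared). All tested genes of chromosome 15 had a median of -0.086 in ΔDNMT3A against WT and 0.26 in DNMT3A2-labelled libraries against ΔDNMT3A, each with the sign of ID1 and smaller. ID3 ran closely with ZDHHC7 (r = 0.987) and ZNF346 (0.986), and SMAD6 most like FBXO28 (0.989), IQCE (0.987) and SLC25A13 (0.984). Of 47 genes with r of at least 0.95 to ID3, 8 lay on chromosome 5 (17.0%, against 4.44% of all genes compared). For SMAD6, 16 of 85 such genes lay on chromosome 7 (18.8%, against 4.95%). Each chromosome named is the commonest one for its gene. These correlations describe profiles over lines that share libraries and depth.

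In the mouse colon none of the 10 genes passed between ΔIEC and fl/fl. Of the 9 genes with an adjusted p 0 passed with edgeR and 0 with DESeq2, 1 had an unadjusted p under 0.05 by either tool (14.1% of all genes with edgeR), and the background was 0.691% of 14626 genes called (0.602% higher and 0.0889% lower). Standard errors of the 9 log2 fold changes ran from 0.083 to 0.36, against 0.03 to 0.084 for the 10 genes in ΔDNMT3A against WT, so differences as small as most of those in Caco-2 were not detectable at this spread. One fl/fl library, replicate 2, stood apart: it held the surface colonocyte transporter gene Slc26a3 at 3778 CPM, against 1698 to 1914 in the other fl/fl libraries and 1615 to 2400 in ΔIEC. Summed surface markers (Slc26a3, Aqp8, Car4, Ceacam1) were 9081 to 16810 CPM in fl/fl and 8076 to 14670 in ΔIEC, crypt base markers 40.8 to 47.3 and 30.2 to 49.9. Summed immune markers were 12.6 to 17.4 CPM in fl/fl and 16.7 to 20.9 in ΔIEC, with the leukocyte gene Ptprc at 1.37 to 2.5 and 3.49 to 4.88 CPM. The endothelial marker Pecam1 was at 6.57 to 10.4 and 5.32 to 9.52 CPM. Stromal markers summed to 19.2 to 24.5 and 15.4 to 21.8 CPM with Lum at or under 3 counts. The part of these cells in the values below was not tested.

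**Figure D5:**
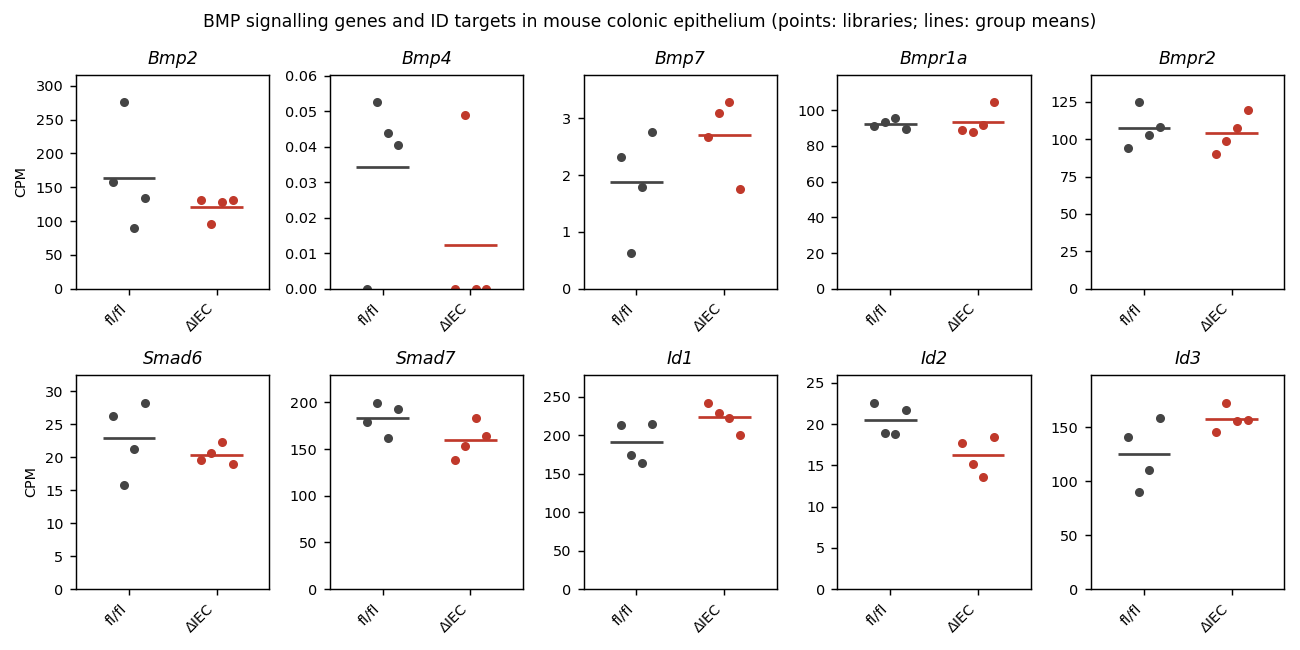
CPM of each gene in every mouse library (points) with the group means (lines), each axis starting at 0. Only Id2 had groups that did not meet, at 18.8 to 22.6 CPM in fl/fl and 13.5 to 18.4 in ΔIEC, and 1 fl/fl library stood high for Bmp2 and low for Bmp7, Smad6 and Id3.

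Bmp2, at chr2:133552159-133562885 of GRCm38, was counted at 158, 275, 89.1 and 134 CPM in fl/fl and 131, 95.2, 128 and 131 in ΔIEC, and the single fl/fl value above all others was that of replicate 2. Its log2 fold change was -0.44 (SE 0.28, adjusted p = 0.512) and became -0.07 without that library, the end nearest 0 of a range from -0.64 (without fl/fl replicate 3) over all libraries left out in turn. Bmp7, with 2.31, 0.630, 1.80 and 2.75 CPM and 2.66, 3.10, 3.28 and 1.75 CPM, had its lowest value in the same library, and its log2 fold change went from 0.50 (SE 0.36, adjusted p = 0.567) to 0.22 without it and to 0.74 without fl/fl replicate 4. Bmp4 gave 3 reads over the 4 fl/fl libraries and 1 over the 4 ΔIEC libraries, never above 1 in a library. It was left out of the edgeR fit by the filter on low counts, and DESeq2 gave it an unadjusted p of 0.546 and no adjusted p. As 3 counts per library was the floor used for counting error, no difference in Bmp4 could be seen at this depth in EpCAM-selected cells, whereas BMP4 was among the ligands readily counted in Caco-2.

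Neither receptor passed, and both had overlapping groups. Bmpr1a had 91.2, 93.6, 95.7 and 89.6 CPM in fl/fl and 88.6, 87.9, 91.6 and 104 in ΔIEC, a log2 fold change of 0.0099 (SE 0.083, adjusted p = 0.974). Bmpr2 had 94.2 to 124 and 90.3 to 119.5 CPM and -0.049 (SE 0.11, adjusted p = 0.889). For the inhibitory SMADs, Smad6 was at 26.3, 15.8, 21.2 and 28.3 CPM in fl/fl and 19.6, 20.7, 22.3 and 18.9 in ΔIEC, with -0.17 (SE 0.16, adjusted p = 0.678), and ran from -0.32 without fl/fl replicate 2 (adjusted p = 0.256) to -0.057 without fl/fl replicate 4 (adjusted p = 0.908), and was -0.098 without fl/fl replicate 1. Smad7 was at 179, 199.7, 162 and 193 CPM and 138, 153, 183 and 164 CPM, with -0.20 (SE 0.11, adjusted p = 0.441).

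The log2 fold changes of the 3 mouse ID genes differed in sign and 0 passed with edgeR, with 1 at an unadjusted p under 0.05. Id1 was counted at 213, 175, 164 and 215 CPM in fl/fl and 242, 228, 222 and 199.7 in ΔIEC, a log2 fold change of 0.22 (SE 0.11, adjusted p = 0.425) with overlapping groups. Id3 stood at 141, 89.5, 110.4 and 158 and 145, 172, 155 and 156 CPM, at 0.33 (SE 0.16, adjusted p = 0.377), from 0.20 without fl/fl replicate 2 to 0.47 without fl/fl replicate 4. Id2 was the exception in overlap, with 22.6, 18.9, 18.8 and 21.7 CPM in fl/fl and 17.8, 15.1, 13.5 and 18.4 in ΔIEC, so that all ΔIEC libraries lay below all fl/fl libraries. Its log2 fold change was -0.34 (SE 0.12, adjusted p = 0.269), with an unadjusted p of 0.0207. Groups that do not overlap were found for 10.3% of all genes tested, 6.16% with ΔIEC higher and 4.1% with ΔIEC lower, and 1 of the 9 tested genes here is close to that share. In Caco-2 the corresponding differences of ΔDNMT3A against WT were -0.51 for ID1, 0.03 for ID2 and 1.43 for ID3. Whether the effects differ between the cell line and the mouse was not tested.

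Of 48 other pathway genes found in the mouse tables, where Nog was not matched, 27 were tested and 0 passed with edgeR, with a median log2 fold change of -0.017. At an unadjusted p under 0.05 there were 6, against 14.1% of all genes tested. DESeq2 gave an adjusted p for 28 genes of the list and called 1, Nbl1, named because it was that single call, with a log2 fold change of 0.68 and an adjusted p of 0.05 as rounded. Smad1, strongly lowered in the edited Caco-2 lines, was at 64.1 to 111 CPM in fl/fl and 75.3 to 99.6 in ΔIEC, a log2 fold change of 0.0076 (SE 0.16, adjusted p = 0.988). Chrd was at 2.03 to 4.01 and 4.16 to 6.73 CPM, with 0.78 (SE 0.23, adjusted p = 0.194). The E proteins Tcf3, Tcf4 and Tcf12 had log2 fold changes of -0.00023, -0.019 and -0.13, of which 0 passed with edgeR and 0 had an unadjusted p under 0.05.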

How the data were processed

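RNA-seq gene counts of 15 Caco-2 and 8 mouse libraries were analysed, grouped by GEO's labels. The authors trimmed reads with Trim Galore 0.4.4, aligned them with STAR 2.5.2b to GRCh38 or GRCm38 and counted read pairs per gene with featureCounts (1.5.2 in the submitters' notes, 1.6.4 in the mouse file headers), on the reverse strand for human and without strand for mouse, where overlapping and antisense genes cannot be told apart. The deposited values are raw counts per gene without normalization. Symbols were taken from a gene name table (56948 of 58051 human identifiers, 98.1%) and from the mouse files.

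Each comparison was fitted on its 2 groups with edgeR 4.0.16 in R 4.3.3 (filterByExpr, TMM, quasi-likelihood F test, Benjamini-Hochberg adjustment over all genes tested, threshold 0.05). The standard error is the log2 fold change divided by the root of F. CPM used TMM sizes over all libraries of a species. Alternatives were DESeq2 1.42.0, RLE normalization, no filter, each replicate left out and, for Caco-2, a replicate block, a fit of all 4 groups and lane 5 or 6 alone. The fits were tested on simulated counts with 200 changed genes. Between replicates, chi-square per degree of freedom was 1.83 to 5.1 in Caco-2 and 9.98 to 80.9 in mouse groups, so no 2 libraries agreed within sampling noise. Reads carry no molecular identifiers, and a floor of 3 counts covers counting error only.

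The 10 genes and all lists were chosen with earlier results of these data known. Named were all 10 genes, in other lists up to 4 called genes per comparison furthest from 0 with a mean of at least 1 CPM, and the 3 genes most like ID1, ID3 and SMAD6 (log2 CPM with a prior count of 2). One gene that this rule names is not reported here. SMAD4, SMAD5, BMP8A, Nbl1, Smad1, Chrd and the mouse Tcf genes were named after their values were seen. Neighbours are the 25 tested genes on each side. Plots used Python 3.11.15, pandas 2.3.3, numpy 2.4.6 and matplotlib 3.10.9.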

Additional observations from a re-analysis of the deposited data

Results flagged for a closer look

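For 3 genes the line labelled DNMT3A1 and the line labelled DNMT3A2 differed from ΔDNMT3A in opposite directions, with both differences past the threshold in edgeR. SMAD6 was lower in DNMT3A1 and higher in DNMT3A2-labelled libraries, and differed between them by -1.01 on the log2 scale (standard error 0.068, adjusted p = 9.46e-13). ID1 differed by -0.87 (standard error 0.031, adjusted p = 1.4e-18) and ID2 by -0.53 (standard error 0.041, adjusted p = 1.51e-11). For ID1 the smaller of these differences, -0.087 in DNMT3A1 against ΔDNMT3A, missed the threshold without some of the libraries.

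A library far from the others of its group was found in 3 of 50 groups of 4 libraries, by Dixon's test at 95%, where chance gives about 1 in 20. SMAD6 had 1 low ΔDNMT3A library at 10.8 CPM (10.75 before rounding), against 11.7 to 11.8 in the other 3. Bmp2 had 1 low ΔIEC library at 95.2 CPM (95.25), against 128 to 131. Bmp4, the last of the 3, had 1 read in 1 ΔIEC library, a level of 0.049 CPM, and 0 in the other 3 libraries. All of these are under the floor of 3 counts, and counts of 0, 0, 0 and 1 pass Dixon's limit by construction, so the value says nothing about that library.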

How the results depend on the processing

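Of 969 single-gene values recomputed under other settings, 938 kept their direction and their side of the threshold, 20 no longer passed and 11 changed sign. The sign changes concerned values that passed in neither setting: ID2 in ΔDNMT3A against WT (-0.030 in lane 5 alone), BMP2 in DNMT3A1 against ΔDNMT3A (0.034 in lane 6), BMPR2 in DNMT3A1 against WT (-0.022 in lane 6), ID3 in DNMT3A2-labelled libraries against ΔDNMT3A (-0.032 in lane 5, and -0.053 to 0.046 with 1 library left out, below 0 without ΔDNMT3A replicate 2 or 4 or DNMT3A2 replicate 4), and in the mouse Bmpr1a (-0.049 to 0.037 with 1 library left out, below 0 without replicate 4 of either genotype) and Bmpr2 (-0.12 to 0.027, above 0 without fl/fl replicate 2 or ΔIEC replicate 1). Calls were lost for BMP7 in ΔDNMT3A against WT and for ID1 in DNMT3A1 against ΔDNMT3A as given above, without the filter too (adjusted p = 0.0632 and 0.066), and, in lane 6 alone, with fewer libraries, for BMP4 in DNMT3A2-labelled libraries against ΔDNMT3A, BMPR1A and ID2 in DNMT3A1 against WT and BMP2 in DNMT3A2-labelled libraries against WT. The counts of called genes among the 10 and among the other pathway genes stayed within 1.5 times in every Caco-2 comparison and setting run. In the mouse, DESeq2 called 351 of all genes against 101 with edgeR and 1 other pathway gene against 0, and leaving out 1 library gave 45 to 126 called genes over all, 45 without ΔIEC replicate 3, 55 without fl/fl replicate 3, 57 without fl/fl replicate 1 or ΔIEC replicate 2 and 61 without fl/fl replicate 4. The cause was not tested. Replicates with the same number in different Caco-2 lines did not deviate together (r from -0.118 to 0.0924 over 21 pairs, 0 above 0.1). No pairing by number was thus detected, which does not show how the libraries were prepared. With the replicate block 9, 7 and 6 of the 10 genes were called in ΔDNMT3A against WT and in DNMT3A1 and DNMT3A2-labelled libraries against ΔDNMT3A. Without the block the counts were 9, 8 and 6, the 1 lost with it being ID1 (adjusted p = 0.0781). No other scaling moved the median of all genes by over 0.1.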

Other observations

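The TGF-beta arm shares SMAD4 and SMAD7 with BMP signalling, and of 8 of its genes 1 rose and 6 fell in ΔDNMT3A against WT, beside 62.2% of all genes called, with a median log2 fold change of -0.23. The ligand gene TGFB2 lay furthest from 0, at -0.96 (SE 0.074, adjusted p = 5.09e-11). TGFB1, the 1 that rose, was at 0.29 (SE 0.072, adjusted p = 0.00135), and it fell in DNMT3A2-labelled libraries against the knockout, at -1.23 (SE 0.08, adjusted p = 2.36e-12). The type II receptor TGFBR2 fell by 0.86 (adjusted p = 2.06e-15) and the type I receptor TGFBR1 by 0.39 (adjusted p = 1.46e-09), the same direction as BMPR1A and BMPR2. TGFB3 was at 23.9 ± 0.762 CPM (n = 4, SD) in DNMT3A2-labelled libraries and 5.997 ± 0.373 CPM (n = 4, SD) in the knockout, a difference of 1.99 (SE 0.062, adjusted p = 2.53e-18) on the log2 scale. The co-receptor TGFBR3 was above the knockout in both isoform lines, at 1.71 (SE 0.046, adjusted p = 1.11e-16) in DNMT3A1 and 1.17 (SE 0.049, adjusted p = 5.76e-16) in DNMT3A2-labelled libraries, comparisons that share the knockout libraries. In the mouse 5 genes of the arm were tested and 0 passed with edgeR, 0 at an unadjusted p under 0.05.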
